A study of Cryptomeria japonica with 72 samples.

Results

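RR2, the target reCj19270, is annotated in the study's own table as the closest match to RESPONSE REGULATOR 2 of Arabidopsis thaliana (AT4G16110), a type-B cytokinin response regulator. It was chosen by its identifier and was 1 of the 19304 targets on a 1-colour Agilent microarray of Cryptomeria japonica, a conifer that is propagated by cuttings. The target was read by 1 probe, CUST_4675_PI429951308 (isotig19122), spotted 3 times on each array. Stem cuttings of the clone Tsukuba 1 were taken from field-grown donor trees, inserted into soil in a greenhouse without control of the environment, and left to root. From each cutting the base (underground), the middle (aboveground) and the needles (a shoot tip with its needles) were collected. Sampling began at excision (0 hpe) and, once the cuttings stood in soil, went on at 0 and 3 hours (hpi), 1 and 3 days (dpi) and 1, 3 and 6 weeks (wpi) after insertion. By the study's methods excision was in the morning and insertion followed later that day. At 0 hpi and 3 hpi, hour of day and time since excision therefore cannot be told apart in any part. With 3 cuttings at each of these 8 times this gave 24 groups of 3 and 72 arrays. The 0 hpe group, taken before insertion, served as the starting level of each part, and no cutting was kept without insertion as a control. By the study's methods the bases sampled at 6 wpi were rooted ones that carried roots, so that group was picked for rooting and differs from the others in this too. All material was of 1 clone, and the values describe that clone.

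Cytokinin is perceived at membranes by receptor histidine kinases, which pass phosphate to mobile histidine phosphotransfer proteins (AHPs) and from them to response regulators in the nucleus. In Arabidopsis, type-B response regulators such as RR1 and RR2 are DNA-binding transcription factors that switch on cytokinin-responsive genes, among them the type-A response regulators, which lack the DNA-binding domain and dampen the pathway. Cytokinin made in the plant is an inhibitor of root initiation in many species, and a type-B regulator acts as a negative regulator of adventitious rooting in poplar.

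RR2 was measured on every array. All 216 of its spots were well above the local background, none was saturated and none carried a flag for uneven signal, and the spots of 1 array differed with a median SD of 0.06 (highest 0.30) on the log2 scale. The mean processed signal of the spots ran from 58.3 on 1 wpi base replicate 3 to 7113 on 0 hpe middle replicate 1. Levels are given below as log2 of that mean minus the 75th percentile of all targets on that array, so that 0 is the level of a target brighter than 75% of the array and 1 unit is a doubling. Between 66.0 and 86.9% of all spots were well above background on the base arrays, 76.4 to 85.6% in the middle and 73.1 to 83.9% in needles. The 75th percentile itself ran from a signal of 162 to 1133 on base arrays, 299 to 1764 in the middle and 455 to 1418 in needles.

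**Figure D1:**
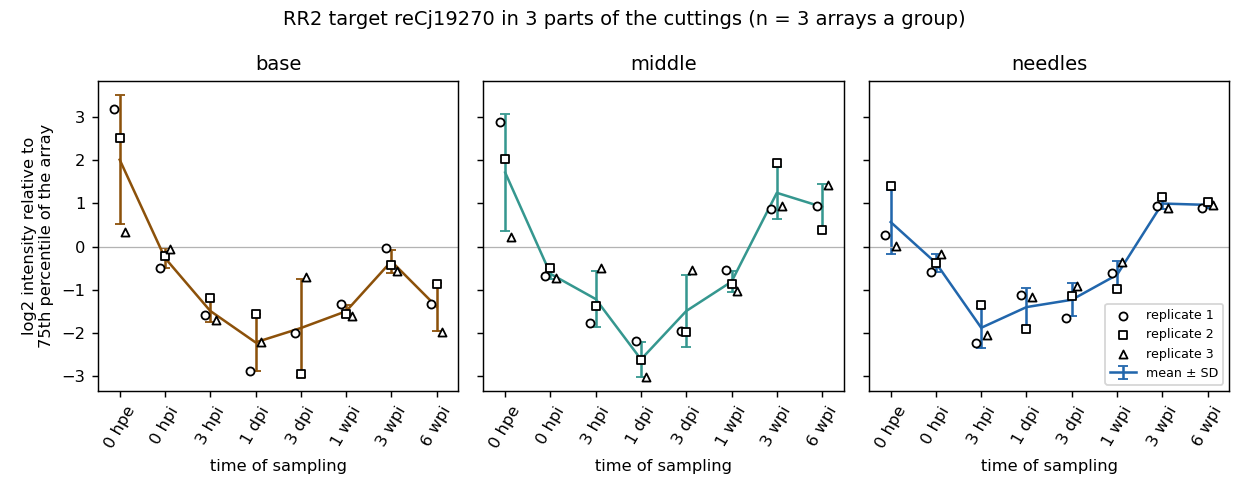
Level of RR2 (reCj19270) at the base, in the middle and in needles at 8 times, as log2 intensity relative to the 75th percentile of each array. Open symbols are single arrays (circle, square and triangle for replicates 1, 2 and 3), and the line with bars is the mean ± SD (n = 3). In base and middle at 0 hpe, replicates 1 and 2 lay at 2.02 or higher and replicate 3 at 0.33 and 0.23, and at 6 wpi middle and needles had means of 0.92 and 0.96 and the base -1.39.

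At the base, RR2 was highest at excision and lowest 1 day after insertion. The 3 arrays at 0 hpe read 3.18, 2.51 and 0.33, a mean of 2.01 ± 1.49 (SD, n = 3). At 0 hpi they read -0.51, -0.22 and -0.07, at 3 hpi -1.57, -1.20 and -1.69, and at 1 dpi -2.88, -1.56 and -2.20. Every array of these 3 later groups lay below every array of 0 hpe. The means differed from 0 hpe by -2.27, -3.50 and -4.22 log2 units, the last an 18.7-fold lower level. The study had chosen targets that varied between the base and middle groups, and named this one among its type-B homologs for strong repression until 1 dpi. The early times in the stem are therefore given as a description without a test. As a background, 26.4, 53.7 and 54.3% of the 9592 targets tested at the base differed from 0 hpe (limma, Benjamini-Hochberg adjusted p below 0.05).

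In the middle the start and the low point lay close to those of the base. RR2 read 2.88, 2.02 and 0.23 at 0 hpe, -0.67, -0.50 and -0.72 at 0 hpi, -1.77, -1.38 and -0.49 at 3 hpi and -2.18, -2.63 and -3.01 at 1 dpi. No array of the later groups reached the lowest array of 0 hpe. The mean at 1 dpi differed from 0 hpe by -4.32 log2 units. This was the lowest value of the 9592 targets (rank 1) in that comparison, in which 42.5% of targets differed. The study had named this target for its fall until 1 dpi, so the rank is a description. The differences at 0 hpi and 3 hpi were -2.34 and -2.93, where 21.8 and 41.1% of targets differed. All middle arrays of 0 hpe were on 1 slide, which held none of 0 hpi or 3 hpi, so slide and time cannot be told apart there. That slide held 1 array of 1 dpi, for which the difference was -4.72.

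Replicate 3 of 0 hpe stood apart in both stem parts, at 0.33 and 0.23, close above the 0 hpi arrays, while replicates 1 and 2 lay between 2.02 and 3.18. The same array of the base was also nearer to the 0 hpi mean over all targets than the other replicates were (root mean square difference 0.861, against 1.26 and 1.08 for replicates 1 and 2). Deviations from the group mean of same-numbered base and middle arrays at 0 hpe correlated with r = 0.944, 0.748 and 0.947 over targets. Without replicate 3 of both parts, no comparison of a stem part against 0 hpe changed its side of the threshold.

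Needles, which played no part in the study's choice of this target, also lost RR2 signal, to a lesser depth and with an earlier low point. Their arrays read 0.28, 1.41 and 0.01 at 0 hpe, -0.58, -0.38 and -0.18 at 0 hpi and -2.22, -1.36 and -2.05 at 3 hpi. All arrays of 0 hpi and 3 hpi lay below those of 0 hpe. At 3 hpi the level was 2.44 ± 0.31 (SE) log2 units lower than at 0 hpe, 5.44-fold (limma on 24 arrays, adjusted p = 1.79e-05 over 12523 targets), in a comparison that called 26.4% of targets. No slide held both times, and with slide as a fixed block the difference was -3.69 (adjusted p = 0.000351). At 1 dpi the arrays read -1.12, -1.91 and -1.17 and at 3 dpi -1.64, -1.15 and -0.90, all below the 0 hpe arrays. These levels were 1.97 and 1.80 log2 units under 0 hpe (limma, adjusted p = 0.000441 and 0.00352), where 12.1 and 4.57% of targets were called. On the 1 slide that held both times and a 0 hpe array, the one with replicate 2 of 0 hpe, these differences were -3.32 and -3.05. Over all 8 times the needle levels differed with F = 26.4 (limma F-test, adjusted p = 6.78e-07).

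The first and the last steps of the fall in needles were less firm. At 0 hpi RR2 was 0.95 lower than at 0 hpe (limma, adjusted p = 0.0282, with 26.7% of targets called), and at 1 wpi, with arrays at -0.62, -0.99 and -0.35, it was 1.22 lower (adjusted p = 0.0299, 4.48% called). Without needles 0 hpe replicate 2, which at 1.41 was the highest array of its group, these differences were -0.52 (adjusted p = 0.172) and -0.80 (adjusted p = 0.0818). The call was also lost without either of 0 hpi replicates 1 and 2 for the first (adjusted p = 0.108 and 0.0644), and without 0 hpe replicate 1 or any 1 of the 1 wpi arrays for the second (0.0509 to 0.0922). With slide as a fixed block the 1 wpi difference was -2.47 (adjusted p = 0.0652).

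At 3 wpi the means of middle and needles were 1.24 and 0.99, with overlapping arrays, and that of the base was -0.34. Middle was not tested against needles. In needles the arrays rose to 0.95, 1.15 and 0.89 at 3 wpi and read 0.90, 1.03 and 0.95 at 6 wpi, which overlapped the 0 hpe arrays. The step from 1 wpi to 3 wpi, a comparison chosen after the values were seen, was an increase of 1.65 ± 0.31 (SE; limma, adjusted p = 0.00225, with 16% of targets called). Against 0 hpe the levels at 3 and 6 wpi differed by 0.43 (95% interval -0.21 to 1.07) and 0.40 (-0.24 to 1.04), and did not pass (limma, adjusted p = 0.311 and 0.321, with 29 and 37.9% of targets called). Without needles 0 hpe replicate 2 they were 0.85 and 0.82 higher and passed (adjusted p = 0.023 and 0.0227). With slide as a fixed block they turned to -1.15 and -1.18 without passing (adjusted p = 0.304 and 0.208), and the step from 1 to 3 wpi was 1.32 (0.0902).

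In the middle, RR2 did not differ from its starting level past the threshold at 3 and 6 wpi. Its arrays read -1.95, -1.99 and -0.53 at 3 dpi, -0.55, -0.86 and -1.02 at 1 wpi, 0.86, 1.93 and 0.94 at 3 wpi and 0.94, 0.39 and 1.42 at 6 wpi. Up to 1 wpi all arrays were below those of 0 hpe, and from 3 wpi the groups overlapped again. The differences from 0 hpe were -3.20 at 3 dpi and -2.52 at 1 wpi (limma on 48 arrays, SE 0.57, adjusted p = 0.000234 and 0.0065), ranking 4 from the lowest at both times, where 20.5 and 8.9% of targets were called. Without middle 0 hpe replicate 1 or 2 the 1 wpi value was -1.94 (adjusted p = 0.0753) or -2.37 (0.0506). At 3 and 6 wpi the differences were -0.47 (95% interval -1.62 to 0.68; adjusted p = 0.911) and -0.79 (-1.94 to 0.35; adjusted p = 0.466), with 0.0938 and 4.93% of targets called. Without middle 0 hpe replicate 3 they were -1.21 and -1.54. Under no setting did either pass (limma, lowest adjusted p = 0.156 and 0.0537), and a lower level is not excluded. The step from 1 wpi to 3 wpi was 2.05 (95% interval 0.90 to 3.20), with the arrays of these groups apart, and did not pass over all targets (limma, adjusted p = 0.287, with 0.0313% of targets called).

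The base stayed low to the end. Its arrays read -1.99, -2.95 and -0.71 at 3 dpi, -1.33, -1.56 and -1.60 at 1 wpi, -0.04, -0.42 and -0.56 at 3 wpi and -1.33, -0.86 and -1.97 at 6 wpi, in the rooted bases. All 12 arrays lay below the 3 of 0 hpe. Against 0 hpe the level differed by -3.89, -3.50, -2.35 and -3.40 log2 units (limma, SE 0.57, adjusted p = 1.76e-06, 6.69e-06, 0.000838 and 1.11e-05), the last a 10.5-fold lower level, with 52.3, 54.7, 52.6 and 54% of targets called. No slide held base arrays of 0 hpe together with base arrays of 3 hpi, 1 wpi, 3 wpi or 6 wpi. With slide as a fixed block the 3 and 6 wpi differences were -2.37 and -3.42 and did not pass (adjusted p = 0.221 and 0.0806), while those of 3 dpi and 1 wpi still passed. These tests share the 0 hpe arrays with the early times and are not independent of the study's choice of the target. The same limit holds for the tests of the middle, of base against middle, of the difference of changes and of needles against base. All of these use stem arrays, and the study chose targets that varied between the stem groups. The arrays of 3 wpi lay above those of 1 wpi and of 6 wpi, by 1.16 (95% interval 0.01 to 2.31) and 1.05 (-0.10 to 2.20), neither of which passed (adjusted p = 0.237 and 0.668, with 2.58 and 0.156% of targets called).

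In the order of the 8 base levels, 0 hpe led and overlapped no other group, 0 hpi and 3 wpi overlapped each other and lay above the rest, and 6 wpi, 3 hpi, 1 wpi, 3 dpi and 1 dpi each overlapped the next lower one. In the middle, 0 hpe, 3 wpi and 6 wpi formed the upper set, 0 hpi, 1 wpi, 3 hpi and 3 dpi the lower set, with neighbours overlapping within each, and 1 dpi lay below all others without overlap. In needles, 3 wpi, 6 wpi and 0 hpe overlapped in turn and stood above 0 hpi, 1 wpi, 3 dpi, 1 dpi and 3 hpi, which overlapped in turn. The median over all targets tested lay between -0.25 and 0.16 in every comparison given here. The span between the highest and lowest group mean was 4.22 in the base, 4.32 for the middle and 2.87 in needles. These were larger than the spans of 96.1, 98.7 and 97.2% of the 9175 targets measured on all arrays. The median spans of those targets were 1.27, 0.95 and 0.82. The stem spans of RR2 rest on the early fall for which the study named this target.

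Base and middle differed past the threshold at the last 2 times only. At 0 hpe, 0 hpi, 3 hpi, 1 dpi and 3 dpi, base minus middle was 0.30, 0.37, -0.27, 0.39 and -0.39 (limma, lowest adjusted p = 0.622), with 95% intervals that all lay within -1.54 to 1.54. At 1 wpi the arrays no longer overlapped, with the base 0.68 lower (95% interval -1.83 to 0.46; adjusted p = 0.336, while 41.2% of targets were called). At 3 wpi the base was 1.58 lower (adjusted p = 0.0217) and at 6 wpi 2.31 lower, 4.95-fold (adjusted p = 0.00134), the arrays of both times apart. The base and middle differed in 46.3 and 47.5% of targets at these 2 times, and in 0.0104, 0.136, 11.6, 15.7 and 27.3% at the first 5. The 3 wpi call was lost without base 3 wpi replicate 2 or 3 (-1.54 and -1.47; adjusted p = 0.0535 and 0.0673) or without middle 3 wpi replicate 2 (-1.24; 0.119), and the 6 wpi call held without any 1 array. No slide held arrays of both stem parts, so slide and part cannot be told apart here. A fit with slide as a random block had an estimated correlation of 0.0046 and so could move these values little.

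**Figure D2:**
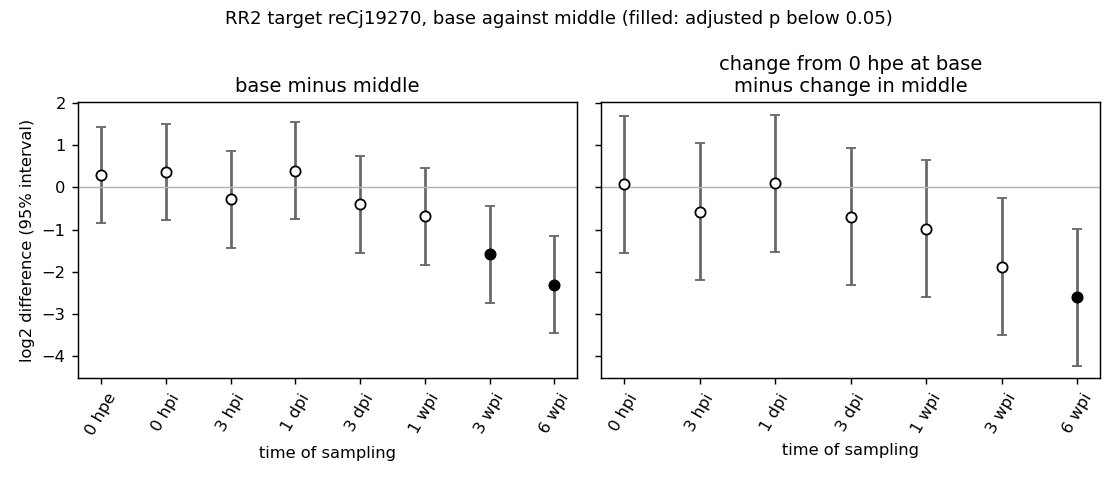
Log2 difference in RR2 between base and middle at each time (left) and between the changes of the 2 parts from 0 hpe (right), with 95% intervals from limma (n = 3 arrays a group). Filled points passed an adjusted p of 0.05. The base was lower by 1.58 at 3 wpi and 2.31 at 6 wpi, and the change to 6 wpi differed by -2.60.

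Tested as a difference of changes from 0 hpe, the course of RR2 to 6 wpi differed by -2.60 ± 0.80 (SE) log2 units, with the larger fall at the base (95% interval -4.23 to -0.98; limma, adjusted p = 0.0189), where 24.1% of targets differed in this way. The corresponding value at 3 wpi was -1.88 (adjusted p = 0.0851, with 21.7% called). Those at 0 hpi, 3 hpi, 1 dpi, 3 dpi and 1 wpi lay between -0.98 and 0.10 without passing, in comparisons that called 0, 0.24, 0.0521, 2.83 and 12.9% of targets. The 6 wpi call was lost without base 0 hpe replicate 1 (-2.01, adjusted p = 0.0728) or 2 (-2.35, 0.0543), middle 0 hpe replicate 3 (-1.86, 0.0915) or middle 6 wpi replicate 3 (-2.35, 0.0595), and with slide as a fixed block (-2.44, 0.352). With the replicate number as a block the 3 wpi value was unchanged and passed (-1.88, adjusted p = 0.0115). It also passed without base 0 hpe replicate 3 (-2.72, 0.00777) and without middle 0 hpe replicate 1 (-2.46, 0.0296). Leaving out a single 0 hpe array shifts the start of 1 part only, although same-numbered base and middle arrays of 0 hpe deviated together. The 6 wpi call held with the replicate block, and without 0 hpe replicate 3 of both parts.

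Targets that mark green tissue also differed at the base by 6 wpi. All 3 photosynthesis targets followed, the photosystem I subunits PSAO (reCj31726) and PSAL (reCj29478) and the ferredoxin FED A (reCj28559), were high in all parts at 0 hpe (4.15 to 6.83) and at 6 wpi read 0.86, -0.78 and -1.96 at the base against 6.03, 4.84 and 4.30 in the middle. Of 4 targets for regulators of root patterning, both SHR targets and SCL3 had higher means at the base than in the middle at 6 wpi and SCR a lower one (-1.68 against 0.98). The part of these in the RR2 difference was not tested. In pieces of whole tissue, fewer cells that express a gene and less RNA per cell cannot be told apart.

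Needles started lower than the base and ended higher. At 0 hpe the needle level was 1.44 below the base (limma on 72 arrays, adjusted p = 0.0142, with 51.5% of 9175 targets called), with overlapping arrays, and the call was lost without base 0 hpe replicate 1 (-0.85, adjusted p = 0.203) or 2 (-1.19, 0.0788) and without needles 0 hpe replicate 1 (-1.30, 0.057) or 3 (-1.16, 0.0867). Without base 0 hpe replicate 3 it was -2.28 (0.000148). At 3 hpi and 1 dpi, needles minus base was -0.39 (95% interval -1.40 to 0.62) and 0.82 (-0.19 to 1.82), neither past the threshold (adjusted p = 0.518 and 0.157, with 57.3 and 59.8% called). At 6 wpi needles were 2.35 ± 0.50 (SE) higher, 5.11-fold, with all arrays apart (adjusted p = 9.31e-05, with 57.1% called). On the 2 slides that held both parts at 6 wpi the differences were 2.23 and 2.41.

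Over the 8 times, the group means of middle and needles ran most alike (Pearson r = 0.899, where the median over 9175 targets was 0.492), followed by base and middle (0.770, median 0.654) and base and needles (0.577, median 0.254). These are descriptions over 8 points from cuttings that the parts share.

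Of 9 other targets annotated to cytokinin signalling or synthesis, 7 were bright enough to be tested in base and middle and all 9 in needles. The annotation at hand was incomplete, so other family members on the array may be missing. The list was read beside the share of all targets called in each comparison. At 1 dpi, 5 of 7 differed from 0 hpe at the base (1 higher and 4 lower, where of all targets 31.2% were higher and 23.1% lower). In the middle it was again 5 of 7 (1 higher and 4 lower, against 23.6 and 18.9%). At 6 wpi the counts were 1 of 7 (base) and 0 of 7 (middle), against 54 and 4.93%. In needles, 3 of 9 differed at 3 hpi, with 0 higher and 3 lower, against 13 and 13.4% of targets, and 0 of 9 at 1 dpi and at 3 dpi, against 12.1 and 4.57%. The list median at 1 dpi was -0.92 (base), -1.14 (middle) and -0.14 (needles), where the medians over all targets tested were 0.09, 0.02 and 0.01.

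**Figure D3:**
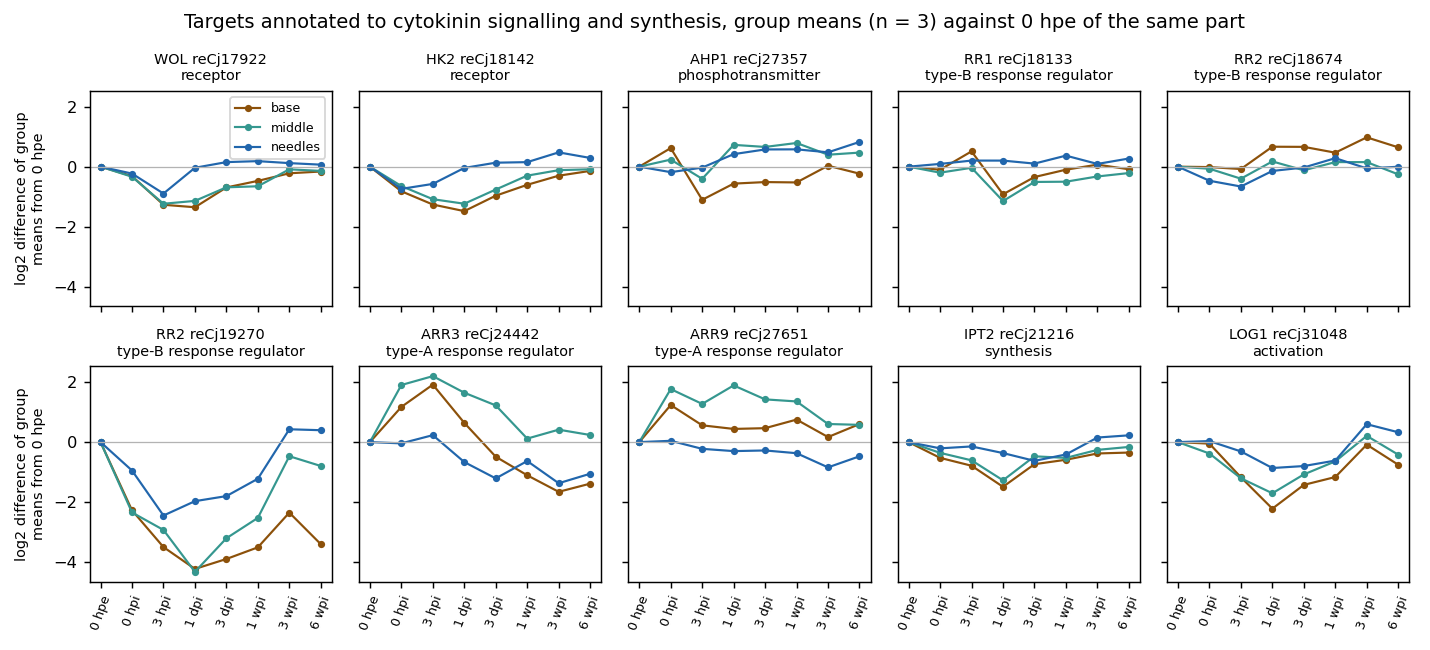
Group means (n = 3 arrays) of 10 targets of the cytokinin pathway, as log2 difference from 0 hpe of the same part, by time. RR2 reCj19270 had the deepest curve of the 10, with -4.22 (base) and -4.32 (middle) at 1 dpi. The study had named it among its type-B homologs for its fall until 1 dpi, so this depth is a description. HK2 and ARR3 were too dim on some stem arrays for the main filter.

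Among the receptors, WOL (reCj17922), the cytokinin receptor histidine kinase known in Arabidopsis for its role in root vascular tissue, was lower at 3 hpi and 1 dpi in both stem parts. It read 1.55, 1.08 and 0.64 at the base at 0 hpe and -0.59, -0.09 and -0.10 at 1 dpi, a decrease of 1.35 with arrays apart (limma, adjusted p = 5.59e-05). In needles WOL was 0.89 lower at 3 hpi (adjusted p = 7.24e-05) and was not called at 1 dpi, when RR2 was still 1.97 lower. HK2 (reCj18142), a second receptor kinase, passed only the more permissive filter in the stem, where it was 1.48 lower at the base at 1 dpi (limma, adjusted p = 7.71e-05).

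The phosphotransfer protein AHP1 (reCj27357), which carries phosphate to the regulators, was lower at the base than in the middle from 1 dpi to 1 wpi and at 6 wpi. It read 1.18, 0.48 and 0.46 on the base arrays of 1 dpi and 2.43, 2.07 and 2.23 on those of the middle, a difference of -1.54 with arrays apart (limma, adjusted p = 0.00474), and was 0.95 lower at the base at 6 wpi (adjusted p = 0.0212). At 1 dpi and 3 dpi RR2 itself did not differ between these parts by a margin that passed.

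The other target annotated to RR2, reCj18674, was higher at the base at 1 dpi, 3 dpi, 3 wpi and 6 wpi than at 0 hpe, where reCj19270 was lower. It read -1.49, -2.16 and -1.90 at 0 hpe, -0.77, -0.88 and -0.97 at 3 wpi and -0.96, -1.61 and -1.05 at 6 wpi. The differences were 0.66 at 1 dpi and at 3 dpi, 0.98 at 3 wpi and 0.64 at 6 wpi (limma, adjusted p = 0.00888, 0.0102, 0.000298 and 0.0113). At 0 hpi, 3 hpi and 1 wpi they were -0.01, -0.08 and 0.47 and did not pass (adjusted p = 0.967, 0.777 and 0.0627). In the middle at 6 wpi it read -2.35, -2.36 and -2.13, so that the base was 1.08 higher (adjusted p = 0.000152) where reCj19270 was 2.31 lower. The change to 6 wpi was 0.90 greater at the base than in the middle (adjusted p = 0.0292), opposite in sign to the -2.60 of reCj19270. In needles both fell at 3 hpi, reCj18674 by 0.66 (adjusted p = 0.00325). RR1 (reCj18133), the other type-B target on the list, fell at 1 dpi by 0.92 in the base and 1.14 in the middle (adjusted p = 0.00281 and 0.000576) and was called at no other time in either part.

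The type-A regulator ARR9 (reCj27651) was higher in the middle at 0 hpi and 1 dpi than at excision. The study counts this target with the type-B regulators, while the Arabidopsis gene it is annotated to is of type A. It read -1.45, -1.57 and 0.88 at 0 hpe and 1.14, 0.99 and 1.04 at 0 hpi, an increase of 1.77 (limma, adjusted p = 0.0155), and was 1.89 higher at 1 dpi (adjusted p = 0.0044). At 3 hpi and 3 dpi the differences were 1.27 and 1.42 and did not pass (adjusted p = 0.0516 and 0.0515), and at the base none passed. Here too, replicate 3 of 0 hpe lay near the 0 hpi arrays, with 0.88 in the middle and 0.68 at the base against -1.57 to -1.35 in replicates 1 and 2. ARR3 (reCj24442), a second type-A regulator, passed once in the stem under the more permissive filter, in the middle at 3 hpi (2.20, adjusted p = 0.0345). Its arrays overlapped there, with -4.19, -1.30 and 0.93 at 0 hpe and 1.73, 0.99 and -0.69 at 3 hpi.

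Genes for cytokinin supply were lower at 1 dpi in both stem parts. LOG1 (reCj31048), of a family that releases active cytokinin from its nucleotide, read 1.33, 0.64 and 1.04 at the base at 0 hpe and -1.55, -1.11 and -0.97 at 1 dpi, a decrease of 2.22 (limma, adjusted p = 1.54e-06), with a decrease of 1.70 in the middle (adjusted p = 0.000122). IPT2 (reCj21216), an isopentenyltransferase that acts on tRNA in Arabidopsis, was 1.49 lower at 1 dpi in the base and 1.27 lower in the middle (adjusted p = 7.51e-05 and 0.000794). At the base both were also lower at 3 hpi and 3 dpi, LOG1 also at 1 wpi, and in the middle LOG1 at 3 hpi and 3 dpi. Neither passed at 0 hpi or at 3 and 6 wpi in either part, and at the base the differences at 6 wpi were -0.75 for LOG1 and -0.35 for IPT2 (adjusted p = 0.052 and 0.321), where RR2 was 10.5-fold lower. Neither was called in needles against 0 hpe at any time. Over the 16 stem group means, the r of RR2 with LOG1 was 0.862 and with IPT2 0.836. Over the 8 needle means it was 0.832 and 0.770, and over all 24 groups 0.457 and 0.253. For the receptor WOL the r was 0.782 in the stem, 0.526 in needles and 0.694 over all groups. The last was the highest among the listed targets measured on all arrays. Needles started 2.23 (LOG1) and 2.03 (IPT2) lower than the base at 0 hpe.

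The targets whose 24 group means ran most like those of RR2, among 9174 others with a median r of -0.06, were reCj20278 (r = 0.916), reCj13794 (0.899), reCj29373 (0.894), reCj19548 (0.892), reCj18127 (0.889) and reCj19413 (0.887). The first is annotated to LSF1, a chloroplast protein needed for starch breakdown at night in Arabidopsis, the third to the DnaJ-domain chaperone J11, the fourth to PDE312, a nucleic acid-binding protein, and the last to EMB2654, a protein with repeat motifs, while reCj13794 and reCj18127 had no annotation at hand. reCj18127 came closest to the depth of the RR2 curve, with base means of 1.22 at 0 hpe, -3.10 at 1 dpi and -1.82 at 6 wpi, the last against 0.29 for the middle. LSF1 moved in a smaller range, from 1.33 to -0.71 at the base. By rank correlation 4 of these 6 were again in the top 6, and over single arrays 5 of 6.

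Most opposite were reCj33036, a gibberellin-regulated family protein (r = -0.885), reCj24887, annotated to the alpha-amylase AMY1, a starch-degrading enzyme (-0.882), and reCj14833, annotated to LRL3, a basic helix-loop-helix protein of root hair development in Arabidopsis (-0.877). AMY1 had base means of 0.51 at 0 hpe and 5.07 at 1 dpi and middle means of 0.70 and 4.51, where RR2 differed by -4.22 and -4.32. In needles it read 1.24 at 0 hpe, 4.39 at 3 hpi, the time of the RR2 low point, and 0.56 at 6 wpi. At 6 wpi its means were 4.14 (base) and 1.93 (middle). The group means come from the same arrays and cuttings, and the likeness is a description of these profiles.

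**Figure D4:**
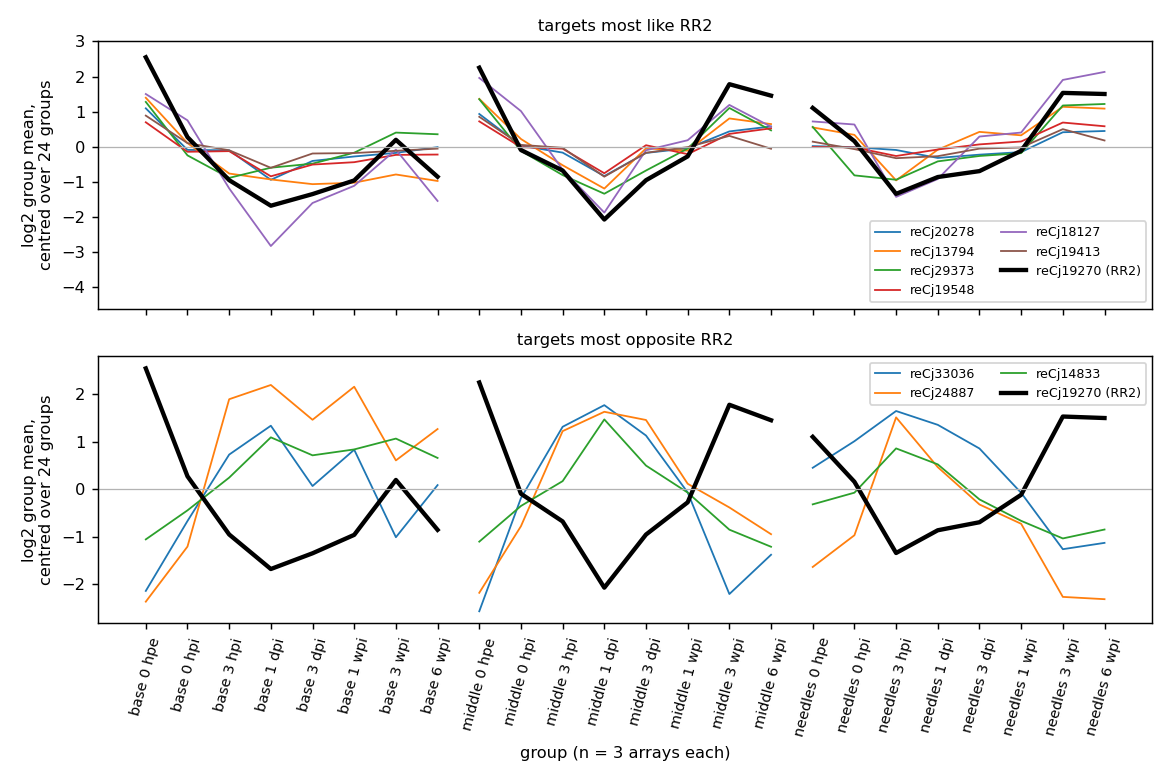
Group means (n = 3 arrays, log2, centred over the 24 groups) of RR2 in black, with the 6 targets of highest Pearson r (upper panel, 0.887 to 0.916) and the 3 of lowest r (lower panel, -0.885 to -0.877). Groups run by time within base, middle and needles.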

How the data were processed

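The authors deposited Agilent Feature Extraction 11.5 intensity values and detection flags for 72 arrays, detrended and background-subtracted by the software, and a log2 table made by them, which was used as an alternative. Here the spots of a target without a flag for uneven signal were averaged, or all its spots where every one was flagged. The means were put on the log2 scale and reduced by each array's 75th percentile. Values made in the same way from all spots, flagged or not, differed from the deposited ones for RR2 by at most 0.00355, apart from a centring of each target. Targets were tested when, on every array of a dataset, no spot was flagged as uneven, all spots were well above background and the mean signal was above 10. This left 9592 targets (base and middle), 12523 (needles) and 9175 (all). The more permissive filter used the flag for positive and significant spots. Tests were limma 3.58.1 in R 4.3.3 (lmFit, eBayes, no block) over all arrays of a dataset, with p adjusted by Benjamini-Hochberg over its targets. Of 46 comparisons of RR2, 40 were tested and 6, the early stem times that the study had shown, only described. Precision is limited by how many arrays there are.

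The target, the cytokinin list and the comparisons were chosen with earlier results of these data known. The list was taken from annotations to the pathway, and the targets of highest and lowest r were named by rank (6 and 3). Replicates were separate cuttings. Same-numbered arrays of 2 parts deviated together in every pair (r over 0.1) at 3 of 8 times for base and middle. At 6 wpi, 1 of these times, arrays of other numbers reached r = 0.287, above the lowest same-numbered r of 0.185. At 0 hpe, another of these times, r was 0.748 to 0.947, against at most -0.11 between other numbers. Deviations within a group cancel out, so low values between other numbers come with high same-numbered ones and are no separate sign. The labels do not say that a number marks 1 cutting, so the main fits treated all arrays as independent. They thus leave out a pairing that the 0 hpe stem arrays show, and the replicate block is given as an alternative. Slides, of which 3 held middle arrays and 6 base and needles, were each scanned at 1 time. The mean spot signal was not a column used here, so normexp was run on the median signal with an offset of 50. Sequences are not given here.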

Additional observations from a re-analysis of the deposited data

Results flagged for a closer look

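The change of RR2 from 0 hpe to 6 wpi differed between the stem parts by -2.60 log2 units (base minus middle; limma, adjusted p = 0.0189), by a test of the difference itself. The arrays behind it were 3.18, 2.51 and 0.33 falling to -1.33, -0.86 and -1.97 at the base, and 2.88, 2.02 and 0.23 against 0.94, 0.39 and 1.42 in the middle. It was singled out because the same contrast gave unequal values in 2 parts of the cuttings. The cause was not tested.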

How the results depend on the processing

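Across 41 tested results and 692 repeats under another setting, 650 kept their side of the threshold, 34 lost it and 8 gained it, and no called value changed sign. The 6 described differences kept their sign in all 96 repeats and moved by less than the spread between replicates. Quantile normalization, normexp, the median of spots, the deposited log2 table and the more permissive filter changed no call.

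With only the arrays compared in the fit, calls were lost for the middle at 3 dpi (-3.20, 0.0597) and 1 wpi (-2.52, 0.0986), needles at 0 hpi (-0.95, 0.148), 3 dpi (-1.80, 0.0822) and 1 wpi (-1.22, 0.166), the difference of changes at 6 wpi (-2.60, 0.169) and needles against base at 0 hpe (-1.44, 0.192). Calls were gained for base against middle at 1 wpi (-0.68, 0.0154) and the middle from 1 to 3 wpi (2.05, 0.0448). These fits have fewer arrays. With no filter, needles at 1 wpi (-1.22) had 0.0511. With slide as a fixed block, calls were lost for the base at 3 wpi (-2.37, 0.221) and 6 wpi (-3.42, 0.0806) and the difference of changes at 6 wpi (-2.44, 0.352). They were also lost for needles at 1 wpi (-2.47, 0.0652) and needles from 1 to 3 wpi (1.32, 0.0902). Needles at 3 and 6 wpi, not called in the main fit, turned to -1.15 and -1.18. Both comparisons were called only without needles 0 hpe replicate 2, with values of 0.85 and 0.82. The replicate block moved the difference of changes at 3 wpi past the threshold (-1.88, 0.0115) and changed no other call. Leaving out 0 hpe replicate 3 of both stem parts, an alternative chosen after seeing the data, did the same (-1.98, 0.0429). The cause was not tested.

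Leaving out 1 array at a time gave -1.77 to -1.24 for base against middle at 3 wpi, -2.72 to -1.14 and -3.44 to -1.86 for the difference of changes at 3 and 6 wpi, -3.26 to -1.94 for the middle at 1 wpi, -1.22 to -0.52, -1.50 to -0.80, 0.15 to 0.85 and 0.12 to 0.82 for needles at 0 hpi, 1 wpi, 3 wpi and 6 wpi against 0 hpe, and -2.28 to -0.85 for needles against base at 0 hpe. All RR2 spots were well above background, and each group had 3 arrays. At base 3 dpi the mean RR2 signals were 72.2, 87.0 and 99.0, while the 75th percentiles of these arrays were 287, 673 and 162. The spread between those replicates thus holds differences in the percentile as well as in the signal. How far each of these limits the values was not tested.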
